A study of Mus musculus with 12 samples.

Results

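The T cell antigen receptor (TCR) complex and its proximal signalling genes were followed through 4 sorted populations of naive CD4 T cells. They were 34 genes, taken by symbol from the deposited table of 10073 genes, and all 34 passed the filter for testing (a mean level of 0.5 RPKM or more over the 12 libraries), as did 10021 genes in all. RPKM scales a gene's reads by its length in kilobases and by the library's total in megareads (M), which puts genes and libraries on 1 scale. It does not correct for GC content or for the make-up of a library. In this receptor the antigen-binding chains carry no signalling motif of their own, and the CD3 chains and CD247 carry it for them. When the receptor is engaged, LCK phosphorylates these chains, ZAP70 docks on them and phosphorylates the scaffolds LAT and SLP-76 (the product of Lcp2), and the complex assembled there starts the calcium and NFAT, the Ras, and the protein kinase C and NF-kB branches. Naive CD4 T cells receive weak signals of this kind from self peptides without dividing, and this tonic signal varies from cell to cell.

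RNA was measured by RNA-seq in 12 libraries, 4 populations from each of 3 untreated mice. All mice had the Tg(Nr4a1-EGFP)GY139Gsat transgene, in which Nr4a1 regulatory sequence drives green fluorescent protein (GFP), together with the Foxp3tm1Flv allele, which marks regulatory T cells with a red reporter, on a C57/BL6 background. No age was given in the labels, and there was no stimulated and no transgene-free group. Spleen and lymph node cells that were CD4+, negative for the Foxp3 reporter and CD44lo were sorted into population A (Nur77-GFPlo Ly6C+), population B (intermediate GFP, Ly6C+), population C (intermediate GFP, Ly6C-) and population D (high GFP, Ly6C-). Nur77 is the product of Nr4a1, an immediate early gene of TCR signalling, so that GFP is a readout of recent signal, and Ly6C is a surface protein found on some naive cells. The step from C to D and the step from A to B are, by the labels, both steps up in GFP within 1 Ly6C gate, and the step from B to C is a change of Ly6C gate at intermediate GFP. A library is named here by population and mouse number, such as A1.

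Transcripts of the sort markers went against the labels in several ways, and genes listed as markers of other cells differed between libraries. Ly6c1, which encodes a Ly6C protein, was 58.1 to 72.6 RPKM in A and 59.3 to 67.0 in C, and 37.1 to 50.2 in B and 38.2 to 48.4 in D. Every library labelled C (Ly6C-) was thus above every library labelled B (Ly6C+), and Ly6c1 was lower after each GFP step, without overlap. Among the libraries labelled A, Nr4a1 was 57.7 RPKM in mouse 1 and 26.1 and 22.9 in the others, and among those labelled B it was 35.97 in mouse 1 and 73.3 and 64.6 in the others, while C lay between 23.4 and 28.3 and D between 58.7 and 67.8. Cd5, which encodes a surface protein that follows TCR signal strength, was likewise 241 RPKM in A1 against 177 and 156, and 236 in B1 against 332 and 305. The summed level of 5 regulatory T cell markers (Foxp3, Il2ra, Ctla4, Ikzf2 and Tnfrsf18, all listed above 0 in every library) was 24.9 to 28.8 RPKM in A2, A3, B1 and population C, and 52.5 to 63.2 in A1, B2, B3 and population D. Summed plasma cell markers (4 of 6 in the table, among them Jchain) reached 871 RPKM in C3 against 22.4 to 34.3 elsewhere, and 2 B cell markers (of 8 looked for) reached 247 against 6.69 to 28.2. C3 was also highest in 2 myeloid markers (of 8), at 43.2 against 15.7 to 21.2, and 2 cycling cell markers (of 5), at 24.3 against 1.815 to 7.18. Summed erythroid markers (2 of 5, Hbb-bs and Hba-a2) were 8.13 to 22.4 RPKM in A1, B1, C2 and D2 and 133 to 176 elsewhere. The low libraries are labelled mouse 1 in A and B and mouse 2 in C and D. The part of red cells in the results was not tested. The 8 markers of CD4 T cells, which include 5 of the genes described here, summed to 1614 RPKM in C3 and to 1713 to 1919 elsewhere, so the labelled cell type was present in every library. Populations are therefore called the libraries labelled A, B, C and D. Counts of calls are given with and without A1, B1 or C3, and the values of single genes only in part. Depth ran from 6.31 M reads in A3 to 9.07 M in C1, and the least covered of the 34 genes, Tec, had at least 134 reads in each library.

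The complex and its signalling genes were abundant and, for the most part, even. Mean levels ran from 7.23 RPKM for Tec to 397 for Ptprc, with a median of 81.9 against 12.9 over all genes tested. Of the 34 genes, 22 were in the top decile of all genes tested by level, 23 had a mean of at least 50 RPKM and 14 of at least 100. The highest levels were those of Ptprc (CD45, the phosphatase that keeps LCK active), LAT's gene at 385 RPKM, Cd3g at 369, Lck at 365 and Cd3e at 283. Among the tyrosine kinases the order was Lck (365), Fyn (129), Zap70 (83.4), Txk (41.2) and Tec (7.23), and the order was the same in each library. Txk and Tec encode kinases of the Tec family, which act on phospholipase C. In bulk libraries such as these, a smaller share of cells with a transcript and less of it per cell cannot be told apart.

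**Figure D1:**
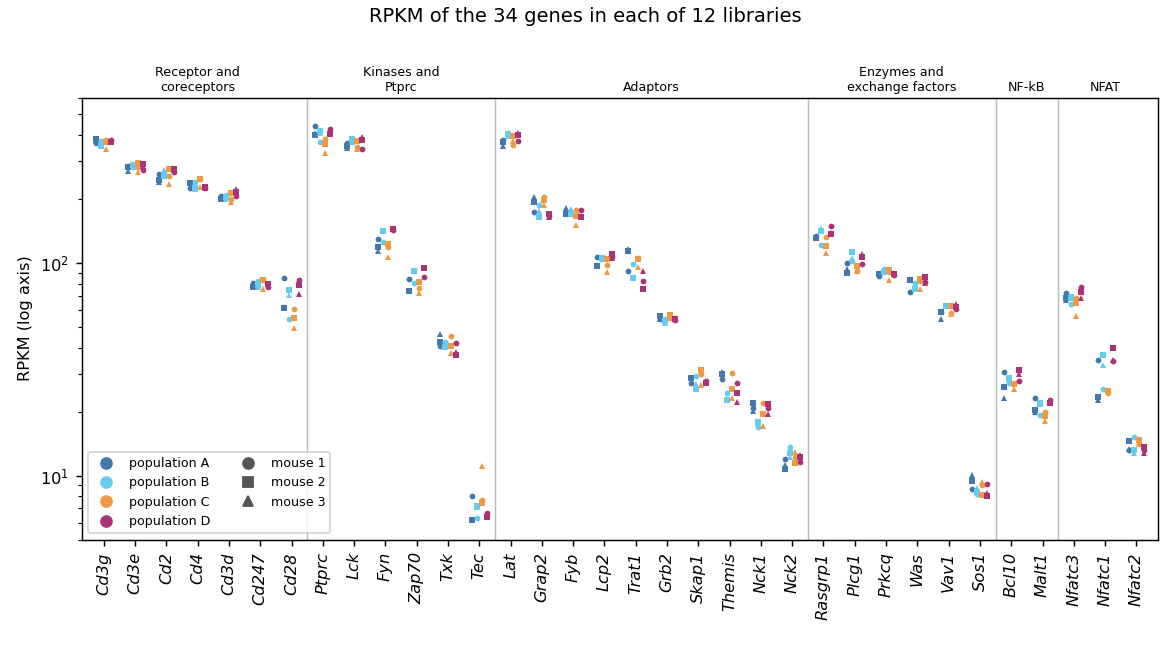
RPKM (log axis) of the 34 genes in each of the 12 libraries, grouped by role and ordered by mean level within a role. Colour is the population and the marker shape the mouse number. Levels ran from Tec at 7.23 to Ptprc at 397 RPKM on average, and for most genes the 12 points lay close together, while Nfatc1, Cd28 and Tec were spread out.

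The spread over the 12 libraries was small for the core of the receptor. The coefficient of variation (CV, the standard deviation as a percent of the mean) had a median of 6.86% over the 34 genes and 8.75% over all genes tested, and 11 of the 34 (32.4%) had a CV under 5%, against 13% of all genes tested. CV falls with level, and at a like level the difference was smaller. The 23 genes between 50 and 500 RPKM had a median CV of 5.02% against 6% over 1118 tested genes of that range, and the 11 genes of 5 to 50 RPKM had 7.87% against 7.94% over 6606. The most even gene was Grb2, an adaptor that brings the Ras activator SOS to the membrane, with a CV of 2.34%. It lay between 52.03 RPKM in B3 and 56.95 in C2. Only Nfatc1 (20.6%), Tec (18.9%) and Cd28 (17.4%) had a CV over 15%. C3 had the lowest value of the 12 libraries for 16 of the 34 genes, and its median deviation from the 12-library mean was -0.11 on the log2 scale over the 34 genes and -0.02 over all genes tested.

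The 4 signalling chains of the receptor stayed within narrow limits. Cd3e was 287, 282 and 271 RPKM in A1 to A3, 284, 288 and 293 in B1 to B3, 283, 294 and 268 in C1 to C3 and 274, 290 and 285 in D1 to D3. The 4 populations overlapped fully. Cd3g was 363.7 ± 19.0 RPKM in C and 372 ± 3.92 in D (SD, n = 3 each), Cd3d was 202 ± 10.5 and 215 ± 8.35, and Cd247 was 80.7 ± 4.29 and 79.1 ± 1.42. For D against C, the log2 differences of the 4 chains lay between -0.03 (Cd247) and 0.09 (Cd3d), and the 95% intervals of single chains reached from -0.15 to 0.22. None of the 4 passed the test in any comparison of all libraries, which does not show that they were equal. Of Cd247, 60.3% of exonic bases are shared with other genes in the GENCODE M21 annotation (Gm16565 on the same strand and Pou2f1 on the opposite strand), and the sources used here do not say whether reads were counted by strand, so its value is uncertain. Cd4, the coreceptor that carries LCK to the complex, had means of 233 RPKM (A), 229 (B), 241 (C) and 226 (D), with SDs from 2.30 to 12.7. Cd2, an adhesion and costimulatory receptor, had means of 249, 265, 255 and 273 in the same order.

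**Figure D2:**
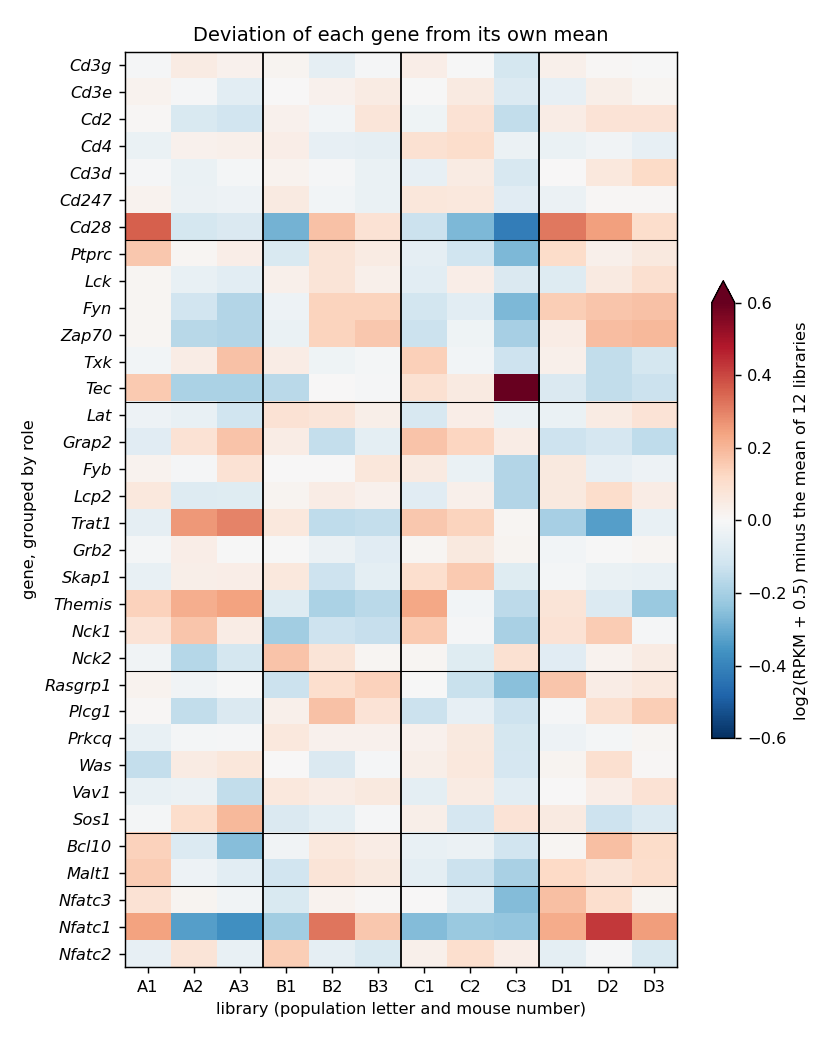
Deviation of each of the 34 genes (rows, grouped by role) from its own mean over 12 libraries (columns), in log2(RPKM + 0.5), with red above and blue below the mean and the colour scale ending at 0.6. The value of Tec in C3 exceeds the scale. The rows of Nfatc1 and Cd28 are red in A1, B2, B3 and D1 to D3 and blue in A2, A3, B1 and C1 to C3, and those of Trat1 and Grap2 are red in A2, A3, C1 and C2, among others.

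D against C, by the labels the GFP step among Ly6C- cells, compares libraries that did not overlap in Nr4a1 or in Ly6c1, which was 64.3 ± 4.35 RPKM in C and 43.7 ± 5.10 in D. In the 6 libraries of C and D alone, 3 genes were higher in D and 1 lower by limma with Benjamini-Hochberg adjustment at 0.05 (4 of 34, or 11.8%), against 4.8% of all genes tested (3.35% higher and 1.45% lower). Those higher were Nfatc1, Cd28 and Fyn, and Grap2 was lower. In the fit of all 12 libraries, whose spread includes that of A1 and B1, 0 of the 34 passed, against 0.00998% of all genes (1 gene). At an unadjusted p under 0.05 in the 12-library fit there were 13 (38.2% of the 34), of which 10 were higher (11.1% of all genes) and 3 lower (7.02%), against 18.1% of all genes in either direction. In 15 of the 34 genes (44.1%) the libraries of C and D did not overlap, 11 higher in D and 4 lower, against 24% of all genes (14.1% higher and 9.89% lower). The 34 genes were chosen with earlier results of these data known, and no share is given for genes of a like level. These shares are therefore not read as an excess particular to the 34 genes. With C3 included, the median log2 difference was 0.05 over the 34 genes and 0.01 over all genes tested. Genes listed here as markers of other cells moved with this step. The 5 regulatory T cell markers summed to 24.9 to 28.5 RPKM in C and 54.2 to 63.0 in D (Foxp3 alone 1.27 to 1.45 and 3.25 to 3.99, Ctla4 5.71 to 10.8 and 21.8 to 32.3). The 2 NK cell markers (of 7 looked for) went opposite ways, with Klrd1 at 12.0 to 15.5 and 9.35 to 10.2 and Eomes at 0.218 to 0.475 and 8.73 to 10.2. Cd8b1, listed for CD8 T cells, was 12.7 to 15.96 and 10.2 to 11.2. Whether these transcripts came from other cells, and what part such cells had in the results, was not tested.

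Nfatc1 encodes NFATc1, a transcription factor that calcineurin releases into the nucleus after calcium entry, and whose own gene is induced by TCR signals. It stood at 24.4, 25.1 and 24.9 RPKM in C1 to C3 and at 34.4, 39.6 and 35.0 in D1 to D3. Every D library was above every C library, and the C libraries lay close together. The log2 difference was 0.54 ± 0.06 (SE), or 1.45-fold, on the log2(RPKM + 0.5) scale (limma, adjusted p = 0.00232 in the 6 libraries alone and 0.114 in the 12-library fit). It was positive in 3 of 3 mice, from 0.48 to 0.65, and passed with each of the 6 libraries left out in turn. The other 2 NFAT genes did not pass the test. Nfatc3 was 68.1, 64.9 and 56.5 RPKM in C and 76.9, 72.9 and 68.7 in D, which did not overlap (log2 0.21 ± 0.08, limma adjusted p = 0.194). Nfatc2 was 14.3 ± 0.381 in C and 13.2 ± 0.408 in D, without overlap and with a log2 difference of -0.11 ± 0.06 (limma adjusted p = 0.407).

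Cd28 encodes the receptor that gives the costimulatory signal beside the TCR. Its values were 60.6, 54.9 and 49.6 RPKM in C1 to C3 and 82.7, 78.7 and 71.2 in D1 to D3. The groups were apart, and mouse 1 was the highest and mouse 3 the lowest in both. The log2 difference was 0.49 ± 0.08, or 1.41-fold (limma, adjusted p = 0.0133 in 6 libraries and 0.11 in 12). Without C3, which held the lowest value, it was 0.42. Without C2, D1 or D2 the adjusted p of Cd28 was 0.0526, 0.0652 and 0.0742.

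Among the kinases, Fyn, which encodes an LCK-related kinase, was higher in D. It was 119, 123.1 and 107 RPKM in C1 to C3 and 143, 144 and 146 in D1 to D3. The D libraries lay close together and all above C. The log2 difference was 0.31 ± 0.06, or 1.24-fold (limma, adjusted p = 0.0211 in 6 libraries and 0.106 in 12), and 0.25 without C3. Leaving out any of the D libraries gave Fyn an adjusted p between 0.0758 and 0.105. Zap70, the kinase that docks on the phosphorylated receptor chains, was 75.9, 81.4 and 72.2 RPKM in C and 85.7, 94.5 and 94.9 in D. These did not overlap, and the log2 difference of 0.26 ± 0.06 missed the threshold (limma, adjusted p = 0.0554). Lck was 356 ± 17.1 in C and 371 ± 23.4 in D, with overlapping libraries. Ptprc, at 381, 364 and 328 RPKM in C and 427, 405 and 413 in D, did not overlap (log2 0.22 ± 0.06, limma adjusted p = 0.0897). Tec was 7.65, 7.43 and 11.1 in C and 6.70, 6.396 and 6.49 in D, so that C3 stood above the other 11 libraries. Its log2 difference of -0.37 ± 0.14 became -0.19 without C3, the library with plasma cell and B cell transcripts, and the part of those cells in it was not tested.

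Of the 10 adaptors 1 fell in D. Grap2 encodes GADS, the adaptor that holds SLP-76 to LAT. It stood at 205, 199 and 188 RPKM in C1 to C3 and at 167, 169 and 164 in D1 to D3. The groups did not overlap, and D was lower in 3 of 3 mice. The log2 difference was -0.24 ± 0.05, or 0.846-fold (limma, adjusted p = 0.0255 in 6 libraries and 0.106 in 12). Without C1, C2, D1, D2 or D3 Grap2 lost the call, with an adjusted p of 0.0568 to 0.12, and without C3 it was 0.0067. Trat1 encodes TRIM, a transmembrane adaptor that associates with the TCR. Its values were 106, 104 and 95.4 RPKM in C and 82.3, 75.2 and 91.9 in D, which did not overlap, with mouse 3 the closest pair (log2 -0.29 ± 0.08, limma adjusted p = 0.0741, and 0.0279 without C3). The genes of the partners of GADS did not pass, with Lat at 376 ± 17.7 in C and 393 ± 16.8 in D and Lcp2 at 97.7 ± 6.95 and 108 ± 2.46 (log2 0.14 ± 0.06, limma adjusted p = 0.249). Of the other 6 adaptors (Grb2, Nck1, Nck2, Fyb, Skap1 and Themis), all had overlapping libraries and log2 differences between -0.09 and 0.09.

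None of the genes of the NF-kB branch or of the effector enzymes passed in D against C by limma in the 6 libraries alone. Malt1, which encodes a protease of the NF-kB branch, was 19.9, 19.0 and 18.1 RPKM in C and 22.6, 21.9 and 22.4 in D, without overlap (log2 0.23 ± 0.06, limma adjusted p = 0.0705). Bcl10, which encodes an adaptor of the same branch, was 26.5 ± 0.801 and 29.7 ± 1.75 (log2 0.16 ± 0.06, adjusted p = 0.196 by limma). Plcg1, the phospholipase that makes the calcium and diacylglycerol signals, was 91.2, 96.6 and 91.5 in C and 99.2, 107 and 111 in D (log2 0.18 ± 0.05, limma adjusted p = 0.116). Rasgrp1, a diacylglycerol-dependent Ras activator, was 121 ± 10.5 and 141 ± 6.66 (log2 0.22 ± 0.07, limma adjusted p = 0.126). The exchange factors Vav1 and Sos1, the kinase Prkcq and the actin regulator Was had log2 differences between -0.06 and 0.07.

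The calls in D against C differed between fits. In the 6 libraries without a variance trend 2 passed, Nfatc1 and Cd28, and leaving out 1 library at a time gave 1 (without D1 or D2), 2 (without C2 or D3) or 5 (without C1 or C3). The shares of all genes called in those fits are not given here. These counts are therefore not read as particular to the 34 genes. With mouse number as a block in the 6 libraries, 8 of 34 passed against 6.4% of all genes, adding Zap70, Ptprc, Rasgrp1 and Nfatc3 on the higher side. In the 12-library fit without A1 and B1, 8 of the 34 passed against 7.63% of all genes. These were Nfatc1, Cd28, Fyn, Zap70, Ptprc and Malt1 higher and Grap2 and Trat1 lower. With C3 left out too 9 of the 34 passed against 8.39%, adding Cd4 as lower. Leaving out C3 in that fit took the log2 difference from 0.22 to 0.16 for Ptprc and Rasgrp1. For Nfatc3 it went from 0.21 to 0.13 and for Lcp2 from 0.14 to 0.09. Nfatc1 stayed at 0.54, and the drop grew for Grap2 (-0.24 to -0.27) and Trat1 (-0.29 to -0.34).

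**Figure D3:**
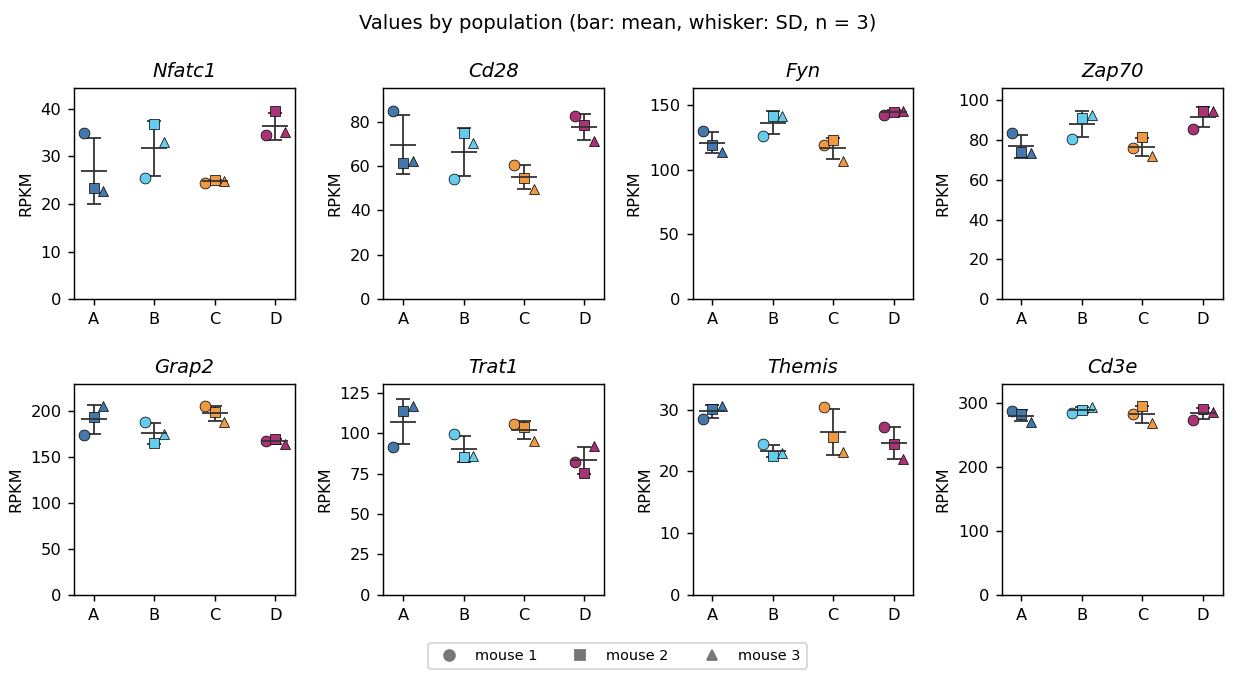
RPKM of 8 genes by population A to D, with axes from 0. Points are libraries, shaped by mouse number, the bar is the mean and the whisker the SD (n = 3). D lies above C without overlap for Nfatc1, Cd28, Fyn and Zap70 and below it for Grap2 and Trat1, the circles of mouse 1 lie apart from the other libraries of A and of B for Nfatc1 and Cd28, and Cd3e is level.

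To set sequence beside these values, the RefSeq start regions (GRCm38.p6, 250 bases before to 50 after a start) are shown for 2 genes with higher and 2 with lower values in D. A match was found for 28 of the 34 genes, and Nfatc1, Cd28, Malt1, Cd2, Cd4 and Skap1 had no entry. Capitals mark matches on either strand to 7 short motifs: the NFAT core TGGAAA, the Ets site CCGGAAGT, the cAMP response element (CRE) TGACGTCA, the AP-1 site TGANTCA, the Egr site GCGGGGGCG, the E-box CAGCTG and the Runx site TGTGGT. Fyn lies at chr10:39369549-39369848 (plus strand), Zap70 at chr1:36761548-36761847 (plus strand, the first of its 3 listed starts), Grap2 at chr15:80623233-80623532 (plus strand) and Trat1 at chr16:48772013-48772312 (minus strand), each written 5′ to 3′ along the gene.
Fyn: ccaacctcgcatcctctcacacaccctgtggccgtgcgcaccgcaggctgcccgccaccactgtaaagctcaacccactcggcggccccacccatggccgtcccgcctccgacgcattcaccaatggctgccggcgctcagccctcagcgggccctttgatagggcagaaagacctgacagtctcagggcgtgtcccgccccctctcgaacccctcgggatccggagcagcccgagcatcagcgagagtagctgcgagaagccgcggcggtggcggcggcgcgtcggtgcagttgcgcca
Zap70: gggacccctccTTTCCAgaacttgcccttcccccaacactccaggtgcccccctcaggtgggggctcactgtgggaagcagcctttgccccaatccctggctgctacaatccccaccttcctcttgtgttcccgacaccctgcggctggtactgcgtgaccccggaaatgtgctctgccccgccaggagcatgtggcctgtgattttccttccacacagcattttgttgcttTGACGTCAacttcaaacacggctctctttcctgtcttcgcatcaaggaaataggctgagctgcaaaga
Grap2: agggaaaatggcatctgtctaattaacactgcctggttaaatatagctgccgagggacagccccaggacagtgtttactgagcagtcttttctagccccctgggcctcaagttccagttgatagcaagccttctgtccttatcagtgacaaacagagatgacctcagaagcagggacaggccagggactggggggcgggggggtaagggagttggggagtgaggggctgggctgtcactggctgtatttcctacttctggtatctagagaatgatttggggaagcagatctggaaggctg
Trat1: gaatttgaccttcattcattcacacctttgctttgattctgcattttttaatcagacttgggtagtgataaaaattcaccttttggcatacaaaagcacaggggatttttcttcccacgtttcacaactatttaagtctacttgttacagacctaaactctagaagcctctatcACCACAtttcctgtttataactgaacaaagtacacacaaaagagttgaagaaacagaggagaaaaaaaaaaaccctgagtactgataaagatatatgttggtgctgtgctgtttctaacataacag
Zap70 held an NFAT core, read on the opposite strand, whose first base is at -239 from the start and a CRE at -18, Trat1 held a Runx match on the opposite strand at -76, and Fyn and Grap2 held none of the 7. Over the start that the RefSeq table lists first for each gene, the NFAT core was in 4 of the 28 (Cd3e, Cd3g, Nfatc2 and Zap70) and in 16% of 8142 genes tested that had an entry. Runx matches were in 5 of the 28 (Lat, Lck, Sos1, Trat1 and Was) and in 12.2%, the E-box in 2 (Cd3g and Lcp2) and in 14%, the Ets site in 1 (Bcl10) and in 10%, the Egr site in 1 (Plcg1) and in 5.33%, the CRE in 1 (Zap70) and in 3.56%, and the AP-1 site in 0 and in 4.27%. None of the 7 motifs was in more than 1 of the 4 windows shown. A match is a run of letters and not a measured binding site.

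B against A is, by the labels, the GFP step among Ly6C+ cells, though Ly6c1 was 64.6 ± 7.40 RPKM in A and 43.9 ± 6.53 in B, and in Nr4a1 mouse 1 ran against the others. Over all libraries 2 of 34 genes were lower in B in the 6 libraries alone, Themis and Nck1, and 0 were higher, against 3.79% of all genes tested (3.18% lower). In the 12-library fit 0 passed against 2.23%, and 9 had an unadjusted p under 0.05 against 23.1%. The libraries did not overlap for 8 of the 34, 6 higher and 2 lower, against 29.2% of all genes. As shares of the 34, these counts are 5.88% (6 libraries), 26.5% (unadjusted) and 23.5% (no overlap), near the background or below it. The other 7 with an unadjusted p under 0.05 were Zap70 (log2 0.20), Nck2 (0.19), Fyn (0.17), Plcg1 (0.17), Vav1 (0.13), Lat (0.13) and Trat1 (-0.25), with limma adjusted p from 0.127 to 0.191 in 6 libraries.

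Themis encodes a protein that tunes TCR signals and is needed for thymocyte selection. It was 28.4, 30.1 and 30.5 RPKM in A1 to A3 and 24.4, 22.6 and 23.0 in B1 to B3. All B libraries were lower than all A libraries, mouse 1 included (log2 -0.34 ± 0.05, 0.789-fold, limma adjusted p = 0.0217 in 6 libraries and 0.0695 in 12). Nck1, an adaptor that links the receptor to actin, was 20.7, 22.0 and 20.2 in A and 16.9, 17.9 and 17.7 in B. The groups did not overlap (log2 -0.25 ± 0.05, limma adjusted p = 0.048 in 6 libraries and 0.0969 in 12). Nck1 lost the call with any of the 6 libraries left out (limma adjusted p 0.0722 to 0.177), and Themis without A2, A3, B2 or B3 (0.0785 to 0.112), while without A1 or B1 Themis passed. In C and D the same genes overlapped, with Themis at 30.4, 25.5 and 23.1 in C and 27.2, 24.3 and 22.1 in D, and Nck1 at 21.9, 19.4 and 17.04 and 20.8, 21.8 and 19.4. Across 9846 genes, which share 1 pair of libraries a mouse and are not independent replicates, the difference between B and A had a Pearson r with transcript GC content of 0.31 to 0.38, against -0.07 to 0.01 for D and C. With the trend in GC content and length removed from each library, the log2 difference was -0.13 for Themis and -0.03 for Nck1, and 0 of the 34 passed. By the same step Fyn became 0.15, Nck2 0.09, Zap70 and Plcg1 0.06, Vav1 0.03, Lat 0.01 and Trat1 0.019. With mouse number as a block 0 passed by limma after adjustment, against 0% of all genes.

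Nfatc1 and Cd28, which were higher in D than in C, were divided by mouse between A and B. Nfatc1 was 34.8, 23.3 and 22.6 RPKM in A1 to A3 and 25.4, 36.8 and 33.0 in B1 to B3. B minus A was -0.45 on the log2 scale in mouse 1 and 0.65 and 0.53 in mice 2 and 3. Cd28 was 85.1, 61.5 and 62.3 in A and 54.3, 75.0 and 70.4 in B, with -0.64 in mouse 1 and 0.28 and 0.17 in the others. Trat1 was 91.2, 114 and 117 in A and 99.1, 85.1 and 85.7 in B, with 0.12, -0.41 and -0.44. Fyn, Zap70 and Grap2 also had opposite signs in mouse 1 and in mice 2 and 3. A1 and B1 are the libraries in which Nr4a1 went against the label, and the 5 regulatory T cell markers summed to 63.2 RPKM in A1 and 28.8 in B1, against 25.5 and 27.1 in the other A libraries and 52.5 and 59.4 in the other B libraries. Whether regulatory T cells were present, or had a part in this, was not tested.

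Without A1 and B1 the step looked different, with 2 libraries a population. In the fit of the 4 libraries left, 9 of the 34 passed against 19% of all genes, 5 higher in B (against 10.2%) and 4 lower (against 8.79%). Higher were Nfatc1 (log2 0.59 ± 0.06), Zap70 (0.32 ± 0.04), Fyn (0.28 ± 0.04), Plcg1 (0.24 ± 0.05) and Cd28 (0.23 ± 0.05), and lower were Trat1 (-0.43 ± 0.04), Themis (-0.41 ± 0.05), Nck1 (-0.24 ± 0.07) and Grap2 (-0.23 ± 0.05). In the 12-library fit without A1 and B1, 6 of the 34 passed against 10.9% of all genes, and without C3 as well 7 of the 34 passed against 16.3%. A1 and B1 were known from earlier results to stand apart, and leaving out both removes mouse 1 from the comparison.

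**Figure D4:**
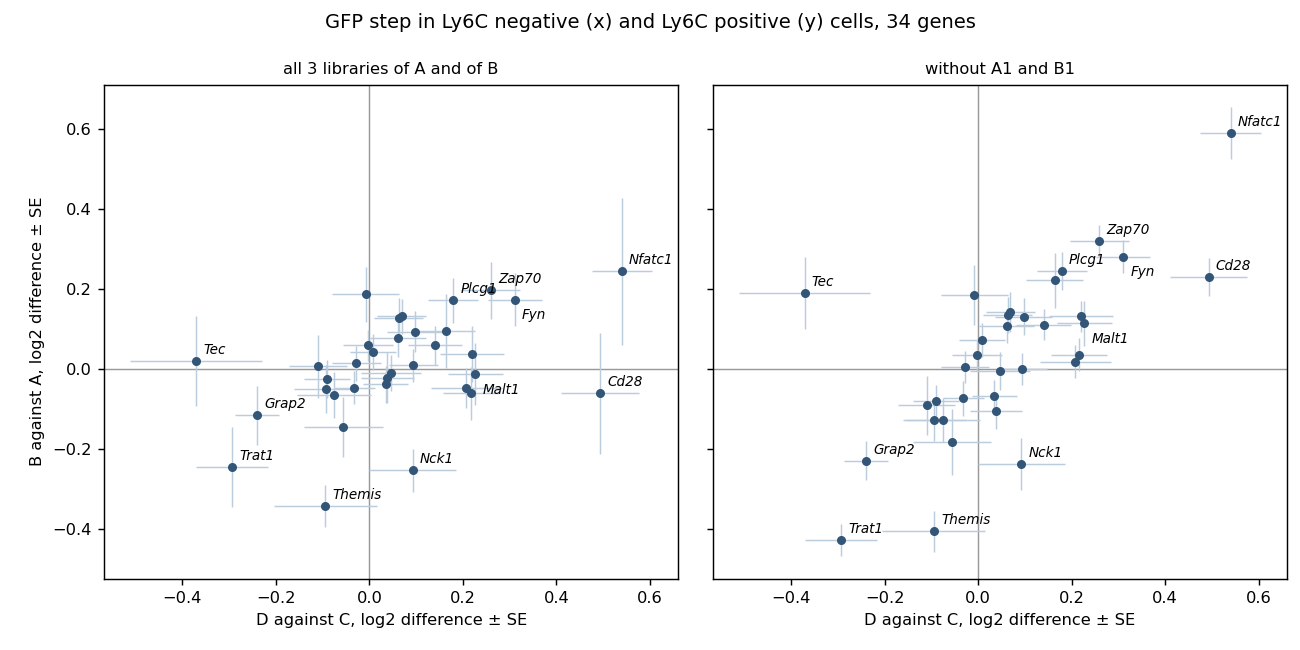
Log2 difference of each of the 34 genes in D against C (horizontal) and in B against A (vertical), each with its SE, from fits of the compared libraries alone. At left all 3 libraries of A and B enter, at right A1 and B1 are left out. Nfatc1 lies at 0.54 and 0.24 at left and at 0.54 and 0.59 at right, Trat1 and Grap2 are below 0 on both axes in both panels, and Cd28 moves from below to above 0 on the vertical axis.

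The 2 GFP steps share no library. Of the 34 genes, 21 (61.8%) had the same sign in both steps with all libraries and 26 (76.5%) without A1 and B1, where all genes tested had 56% and 62.9%. The difference between the steps, tested in the 12-library fit as D minus C less B minus A, was past the threshold for 0 of the 34 and for 0% of all genes by limma, and 5 of the 34 had an unadjusted p under 0.05 against 15% of all genes. These were Cd28 (log2 0.55 ± 0.19), Nck1 (0.35 ± 0.11), Ptprc (0.28 ± 0.09), Nfatc3 (0.25 ± 0.10) and Malt1 (0.24 ± 0.10), with limma adjusted p from 0.215 to 0.293. The calls made in only 1 of the steps are therefore not shown to differ between them.

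D against A spans, by the labels, the whole range of GFP and both Ly6C gates, and shares libraries with both steps. With all libraries 0 of the 34 passed by limma, against 0.0299% of all genes in the 6 libraries alone and 0.00998% in the 12-library fit, where 9 had an unadjusted p under 0.05 against 19%. The libraries of 8 of the 34 genes did not overlap, a smaller share than the 25.8% of all genes, so this count is not read as particular to the 34. Cd2, Cd3d, Fyn, Rasgrp1, Vav1 and Zap70 were higher in D and Grap2 and Themis lower. Fyn was 130, 119 and 114 RPKM in A and 143, 144 and 146 in D (log2 0.26 ± 0.05, limma adjusted p = 0.0969 in 6 libraries). The other 8 with an unadjusted p under 0.05 were Nfatc1 (log2 0.45), Zap70 (0.25), Plcg1 (0.15), Cd2 (0.13), Vav1 (0.12), Grap2 (-0.19), Themis (-0.27) and Trat1 (-0.36), with limma adjusted p from 0.105 to 0.197. Across the same 9846 genes the D minus A difference had a Pearson r with GC content of 0.16 to 0.35. With the GC and length trend removed the values were 0.22 for Fyn, 0.36 for Nfatc1, 0.14 for Zap70, 0.06 for Plcg1, 0.07 for Cd2, 0.03 for Vav1, -0.26 for Grap2, -0.13 for Themis and -0.20 for Trat1, and 0 passed by limma. Without A1, 10 of the 34 passed in the 5 libraries left against 13.6%, 7 higher (against 8.45%) and 3 lower (against 5.16%). Higher were Nfatc1 (log2 0.65 ± 0.07), Zap70 (0.31 ± 0.05), Fyn (0.31 ± 0.04), Cd2 (0.17 ± 0.04), Plcg1, Bcl10 and Cd28, and lower were Trat1 (-0.47 ± 0.07), Themis (-0.30 ± 0.08) and Grap2 (-0.26 ± 0.05). The 12-library fit gave 7 of the 34 against 8.84% of all genes without A1 and B1, and 10 of the 34 against 13.5% without C3 too.

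C against B, by the labels the change from Ly6C+ to Ly6C- at intermediate GFP, gave 0 of 34 by limma in either fit, against 0% of all genes in 6 libraries and 0.00998% in 12, and 7 had an unadjusted p under 0.05 in 12 libraries against 13.4%. Libraries did not overlap for 7 of the 34 genes, against 15.1% of all genes. Grap2, Grb2 and Tec were higher in every C library than in every B library, and Bcl10, Fyn, Nfatc1 and Plcg1 lower. Nfatc1 was 25.4, 36.8 and 33.0 RPKM in B and 24.4, 25.1 and 24.9 in C, so that B1 lay close to C (log2 -0.33 ± 0.12, limma adjusted p = 0.468). The log2 difference was -0.23 for Fyn, -0.20 for Zap70 and Plcg1, -0.16 for Ptprc, -0.17 for Rasgrp1, 0.17 for Grap2, 0.18 for Trat1 and 0.31 for Tec, with limma adjusted p from 0.468 to 0.569, and Tec was highest in C3. The Pearson r with GC content was -0.42 in mouse 1 and 0.02 to 0.03 in the others, and with the trend removed Trat1 was 0.06 and the other 8 lay between -0.27 (Nfatc1) and 0.31 (Tec). Without A1 and B1, 1 gene passed in the libraries of B and C alone (Nfatc1, log2 -0.48 ± 0.07) against 2.88% of all genes, and 5 passed without C3 as well (Nfatc1, Cd28 and Fyn lower, Grap2 and Trat1 higher) against 5.96%. In the 12-library fit it was 7 of the 34 against 7.74% of all genes, and 9 of the 34 against 8.71% without C3 as well. Although B and C were sorted for the same GFP level, Nr4a1 was 35.97 to 73.3 RPKM in the libraries labelled B and 23.4 to 28.3 in those labelled C. Ly6c1 was 37.1 to 50.2 in the libraries labelled B and 59.3 to 67.0 in those labelled C, opposite to the labelled gates.

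Other genes of the pathway, 61 of 67 looked for, were counted in the same fits. In D against C (6 libraries alone) 5 were higher and 1 lower (against 3.35% and 1.45% of all genes), and the same 6 passed without C3. Icos, a costimulatory receptor related to CD28, was 17.01, 16.2 and 12.2 RPKM in C and 24.9, 28.4 and 24.6 in D (log2 0.77 ± 0.12, limma adjusted p = 0.00971). Prkca, a protein kinase C, was 13.9, 13.4 and 13.6 in C and 18.1, 17.2 and 18.9 in D (log2 0.39 ± 0.06). The others higher were Sh2d1a (0.44 ± 0.08), which encodes the adaptor SAP, and the 2 chains of the integrin LFA-1, Itgal (0.33 ± 0.06) and Itgb2 (0.29 ± 0.05). Ppp3ca, a catalytic subunit of calcineurin, which activates NFAT proteins, was 11.1, 9.38 and 12.6 in C and 7.33, 8.03 and 7.49 in D (log2 -0.50 ± 0.11, limma adjusted p = 0.0365). Receptor chains and costimulatory receptors held 3 of these 6 among 6 measured genes, the kinases 1 of 11, the adaptors 1 of 16, the calcium arm 1 of 11, and the Ras arm 0 of 10 and the NF-kB arm 0 of 7.

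In B against A 0 of the 61 were higher and 3 lower in the 6 libraries alone (against 3.18% of all genes lower). They were Cd226, a costimulatory receptor, at 17.1, 18.1 and 18.8 RPKM in A and 14.2, 13.0 and 13.1 in B (log2 -0.41 ± 0.06), Ppp3r1, the regulatory subunit of calcineurin (-0.34 ± 0.05), and Ppp3cb, a catalytic subunit (-0.31 ± 0.05), with limma adjusted p from 0.0217 to 0.0268. In the 12-library fit Ppp3r1 and Rhoh, a GTPase that helps ZAP70 bind, were lower in B, against 2.23% of all genes in either direction. In that fit 0 of the 61 passed in the other 3 pairs (against 0.00998% of all genes in each). In D against A and in C against B 0 passed in 6 libraries either (against 0.0299% and 0%). Without A1 and B1, 9 were higher and 9 lower in B than in A (against 10.2% and 8.79% of all genes), with Icos, Itgal, Itgb2, Prkca and Sh2d1a among the higher and Ppp3ca, Ppp3cb, Ppp3r1, Cd226 and Rhoh among the lower. With the GC and length trend removed, or with mouse number as a block, 0 of the 61 passed in B against A by limma. Without A1, 7 were higher and 6 lower in D than in A (against 8.45% and 5.16%), and without A1 and B1, 0 were higher and 2 lower in C than in B (against 2.88% in either direction). The 12-library fit without A1 and B1 gave 6 higher and 3 lower in D against C (against 7.63% of all genes in either direction), 8 and 4 in B against A (10.9%), 7 and 4 in D against A (8.84%) and 3 and 6 in C against B (7.74%).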

How the data were processed

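RNA of 12 libraries (4 sorted populations, 3 mice) was measured by SMART-seq v4 and NexteraXT, per the labels' protocols. The authors deposited RPKM values per gene and library, per the file headers. STAR, mm9 and mm10 are named in the submitters' processing notes, without version or role. The sources used here do not give the counting tool, the annotation or strand use. RPKM times gene length gave whole reads in every library, which is how depth was found.

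From the deposited values, log2(RPKM + 0.5) was tested by limma 3.58.1 (R 4.3.3, variance trend on) for 10021 of 10073 genes, those averaging 0.5 RPKM or more, both in all 12 libraries and in the 6 compared. Benjamini-Hochberg adjustment ran over all genes tested, with 0.05 as the threshold, and differences on that scale understate the change of low genes. P-values rest on the spread between libraries of the same population, 3 in each unless some were left out. The 12-library fit pools this spread over all populations. Unless mouse number was a block, libraries of the same number were treated as independent. With the block, p-values rest on the spread of differences within mouse numbers. The members and lists were chosen with earlier results of these data known. Every member is accounted for. Folds and tests were due for members past the threshold, then for those at an unadjusted p under 0.05, up to 12 a comparison. Other pathway genes were named by smallest p, up to 4 a list. Nfatc2, Bcl10, Lcp2 and the genes named for a fit without some libraries fall outside that rule, and were named after their values were seen.

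The labels give mouse numbers, so same-numbered libraries were taken as coming from 1 animal, which was not tested. Results by mouse rest on these numbers. Deviations from the population means had a mean correlation of -0.072 between libraries of the same number (-0.613 to 0.379, 1 of 18 pairs over 0.1). Between libraries of different numbers it was 0.032 (-0.422 to 0.506, 13 of 36 pairs over 0.1). The block was an alternative. Others were pseudocounts, filters, rescaling, quantile normalization, no trend, robust moderation and leaving out libraries. Removing a trend in GC content (GENCODE M21, 98.3% of genes) and length was chosen after seeing the data, as were the counts of pathway genes under these settings. Exon overlaps are from GENCODE M21 and start regions from RefSeq. The fits and the depth recovery were tested on simulated data. Python 3.11.15 with pandas 2.3.3, numpy 2.4.6 and matplotlib 3.10.9 was used for the rest.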

Additional observations from a re-analysis of the deposited data

How the results depend on the processing

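Counts of the 34 genes past the threshold kept within 1.5 times their value with a pseudocount of 0.1 or 1, a filter of 5 RPKM or none, rescaling to 1 median, quantile normalization and robust moderation, in all 9 fits. In the 12-library fits all counts were 0. They became 8 (D against C), 6 (B against A), 7 (D against A) and 7 (C against B) without A1 and B1, against 7.63%, 10.9%, 8.84% and 7.74% of all genes. Without C3 as well they became 9, 7, 10 and 9, against 8.39%, 16.3%, 13.5% and 8.71%. Calls over all genes thus rose with the same libraries left out. Leaving out each library in turn gave 0 to 5 (D against C, 5 without B1 and 4 without A1), 0 to 2 (B against A, 2 without C3 and 1 without C1), 0 to 5 (D against A, 5 without A1), 0 to 1 (C against B, 1 without B1) and, for the difference of the steps, 0 to 1 (Nck1 without C1). In the 6 libraries alone, leaving out each in turn gave 1 to 5 for D against C, 0 to 1 for B against A, 0 to 10 for D against A (10 without A1) and 0 to 1 for C against B. For D against A without A1 the share of all genes was 13.6%. No share is given here for the other fits that leave out 1 library. Their counts are therefore not read as particular to the 34 genes. D against C gave 8 with mouse number as a replicate block (against 6.4% of all genes) and 2 without a trend (share not given here). B against A gave 0 with the block (against 0% of all genes), 0 without a trend, 0 with the GC and length trend removed and 9 without A1 and B1 (against 19%). D against A gave 10 without A1 and B1. C against B gave 1 without A1 and B1 (against 2.88%) and 5 without C3 as well (against 5.96%). The block changed no other count by over 1.5 times. With the GC and length trend removed, Trat1 in B against A turned to 0.019 on the log2 scale in both fits, and Malt1 in the difference of the steps to -0.10. The cause of these shifts was not tested. With 3 libraries a population, and 2 where A1 and B1 were left out, the number of libraries limits these counts, and the least covered of the 34 genes had 134 reads or more in each library.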
